A study of Mus musculus with 4 samples.

Results

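Neutrophils of fetal mouse leg muscle were read from single-cell RNA sequencing in droplets, where a unique molecular identifier (UMI) lets a transcript be counted 1 time. A cell was kept if it had between 500 and 6000 genes, between 500 and 25000 UMIs, and less than 8% of UMIs from mitochondrial genes. Of these, the neutrophils were chosen by their own counts, with at least 3 of *S100a8*, *S100a9*, *Retnlg*, *Csf3r* and *Il1r2* detected, a sum of at least 20 UMIs over these 5 genes, and no UMI of *Pdgfra*, *Myog* or *Cdh5*. This rule found 270 neutrophils among 37750 kept cells, or 0.715% (exact Clopper-Pearson 95% interval 0.633 to 0.805). The tissue was leg muscle taken at E18.5, shortly before birth, from wild-type (WT) and *SYISL* knockout (KO) fetuses of heterozygous parents. The paper describes these fetuses as littermates, and there were 2 libraries of each genotype. *SYISL* is a long non-coding RNA of muscle that is named for its place within *Synpo2*. Fetuses were genotyped from their tails. How many fetuses entered a library, their sex, and how the allele was made are not given in the sources used here.

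Neutrophils are short-lived phagocytes that leave the blood early in inflammation. They mature from proliferating precursors that fill primary (azurophil) granules, through a stage that makes the proteins of specific granules, to segmented cells that lose granule transcripts and gain receptors and cytokine transcripts. In the late mouse fetus they are formed mainly in the liver and begin to be formed in bone marrow, and the neutrophils of a limb include those inside its blood vessels. Per the labels, red blood cells were lysed after dissociation, and no step that separates blood from tissue is named. Circulating and tissue neutrophils therefore cannot be told apart.

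The deposited libraries held 9528 to 11670 cells each and 109653824 to 126257094 UMIs in all, and the kept cells had medians of 9048 to 11294.5 UMIs. No feature was named *SYISL*, so the knockout could not be read at its target. Its host gene *Synpo2* had 2 UMIs in all neutrophils, and 975 to 1052 UMIs per library in the other kept cells. *Xist*, the transcript of the inactive X chromosome in females, had 89 UMIs in the neutrophils of KO replicate 2 and 0 in those of the other 3 libraries, while the Y-linked *Ddx3y* had 0 UMIs in KO replicate 2 and 22 to 95 elsewhere. In the other kept cells *Xist* had 131165 UMIs in KO replicate 2, 5 and 0 in WT replicates 1 and 2, and 2 in KO replicate 1. By these transcripts KO replicate 2 read as female and the other libraries as male, so sex was not balanced between the genotypes. With 1 such library, sex cannot be told apart from the other properties of KO replicate 2. Libraries shared 21 to 41 cell barcodes in pairs, and no neutrophil barcode was shared between libraries.

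The neutrophils held fewer UMIs than the other myeloid cells. The median neutrophil held 2816 (replicate 1) and 3627 (replicate 2) UMIs in WT, and 2763 and 2984.5 in KO. For macrophages, called by a rule of the same kind from *C1qa*, *C1qb*, *C1qc*, *Csf1r*, *Adgre1* and *Mrc1*, the medians were 10771 and 13111 in WT, and 10949 and 10598.5 in KO. After each cell was thinned to 1000 UMIs, neutrophils without the marked cells described below had medians of 523.5 to 541 detected genes, macrophages 678.5 to 687, and mast cells 583.5 to 618. Shallower cells were left out of the thinning, which were 2 neutrophils, 4 macrophages and 3 mast cells. Ribosomal protein transcripts took 4.61 to 6.38% of the neutrophils' UMIs and 12.6 to 13.4% of the macrophages'. The 10 most abundant genes took 20.5 to 22.8% of the neutrophils' UMIs and 9.14 to 9.61% of the macrophages'.

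CPM values scale a gene's UMIs to a total of 1000000 in the neutrophils of 1 library, or of all of them where so stated. Of the genes that chose the cells, *S100a9* and *S100a8* were also the most abundant transcripts over all neutrophils, which is a description and no finding. *S100a9*, which with *S100a8* forms the calprotectin complex of the neutrophil cytosol and lies beside it on chromosome 3 (GRCm38 positions 90692632 to 90695721 and 90668978 to 90670035), stood at 68042 and 65276 CPM in WT and 61863 and 55260 CPM in KO. *S100a8* stood at 31670 and 30720 CPM in WT and 28747 and 28770 CPM in KO. *Retnlg*, a resistin-like secreted protein of mouse neutrophils, stood at 11156 and 12621 CPM in WT and 12520 and 7790 CPM in KO. The receptors *Csf3r*, for granulocyte colony-stimulating factor, and *Il1r2*, a decoy receptor for interleukin-1, were lower, at 485 and 553 CPM over all neutrophils. All 5 genes were detected in 138 of 270 neutrophils, 4 in 97 and 3 in 35, and 17 of these 35 were in KO replicate 2. At the edge of the rule, 6 members had a sum of 20 to 29 UMIs, at a median of 0.834% of their UMIs, and 8 kept cells with 10 to 19 UMIs lay just outside it, at 0.576%. A further 42 cells failed only through *Pdgfra*, *Myog* or *Cdh5*, and 18 only through the number of genes detected.

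The neutrophil label held for most but not all members. Of the 6 monocyte genes *Ccr2*, *Ly6c2*, *F13a1*, *Fn1*, *Ms4a6c* and *Csf1r*, at least 3 were detected in 30 members, of which the WT libraries held 7 (replicate 1) and 11 (replicate 2), and the KO libraries 3 and 9. These monocyte-marked cells had a median of 1.43% of their UMIs in the 5 rule genes against 12.6% in the rest, *S100a8* exceeded *S100a9* in 22 of 30, and *Retnlg* was detected in 4 of 30. They took 5.83 and 15.9% of members in WT and 7.69 and 21.4% in KO, so the groups overlapped. Another 4 members (2 in WT replicate 1 and 1 in each KO library) held at least 20 UMIs of the fibroblast genes of the fibro-adipogenic progenitor (FAP) list and are called fibroblast-marked. Neither kind is given a cell type here, and the limits that set them apart were chosen after the cells were seen. The other 236 members numbered 111 and 58 in WT and 35 and 32 in KO, and values without marked cells are for these.

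Most markers of other blood cells were at or near 0 in the neutrophils. *Epx*, *Prg2*, *Ccr3* and *Il5ra* of eosinophils, *Mcpt4*, *Mcpt8*, *Fcer1a* and *Ms4a2* of mast cells and basophils, *Cd3e*, *Ms4a1* and *Nkg7* of lymphocytes, and *Ppbp*, *Itga2b*, *Gp9* and *Gp1bb* of megakaryocytes had no UMI in any member. The 7 erythroid genes summed to 13 to 33 CPM per library. The 8 macrophage genes summed to 332 and 436 CPM in WT and 2185 and 375 CPM in KO, and in KO replicate 1 the genes *C1qa*, *C1qb*, *C1qc* and *Mrc1* came almost wholly from 1 cell, which held 38 of the 38 UMIs of *C1qa* and 39 of the 41 of *Mrc1*. The same cell held 102 of the 105 UMIs of *Pf4*, the platelet and macrophage chemokine. Without marked cells the macrophage sum was 241 and 109 CPM in WT and 528 and 109 CPM in KO. The 7 FAP genes summed to 2503 and 798 CPM in WT and 1544 and 969 CPM in KO, and to 505 and 366, and 797 and 803, without marked cells. Scrublet marked 4 of the 270 members as doublets.

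The measured share of neutrophils was lower in both KO libraries than in both WT libraries. There were 120 neutrophils among 8684 kept cells in WT replicate 1 (1.38%, exact 95% interval 1.15 to 1.65) and 69 among 8360 in WT replicate 2 (0.825%, 0.643 to 1.04). There were 39 among 9985 in KO replicate 1 (0.391%, 0.278 to 0.534) and 42 among 10721 in KO replicate 2 (0.392%, 0.282 to 0.529). The WT libraries differed from each other by more than the KO libraries did. The means were 1.10 ± 0.394% in WT and 0.391 ± 0.000826% in KO (SD, n = 2), a difference of -0.712 percentage points or 2.82-fold. An exact permutation test (two-sided, 6 arrangements of 4 libraries) gave p = 0.33, the smallest that this permutation test can give with 4 libraries, so the permutation test cannot reach the threshold of 0.05. The interval around each share covers counting error only, and the lower KO share was already known when these cells were chosen for description.

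The difference rested in part on WT replicate 1. Without it the difference was -0.434 percentage points and the fold 2.11. With neutrophils taken as a percentage of neutrophils, macrophages and mast cells together, the shares were 35.4 and 24.8% in WT and 12.6 and 12.7% in KO. Macrophages were 1.88 and 1.89% of kept cells in WT and 1.93 and 1.98% in KO, and mast cells 0.645 and 0.610% in WT and 0.781 and 0.718% in KO. For these 2 classes both KO values exceeded both WT values, and the exact permutation p was 0.33 for each. For cell numbers, edgeR's quasi-likelihood test put neutrophils at a log2 fold change of -1.50 (unadjusted p = 0.0227, adjusted p = 0.0909 over 4 classes). The lower share was known when these cells were chosen, and this adjustment does not cover that choice.

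**Figure D1:**
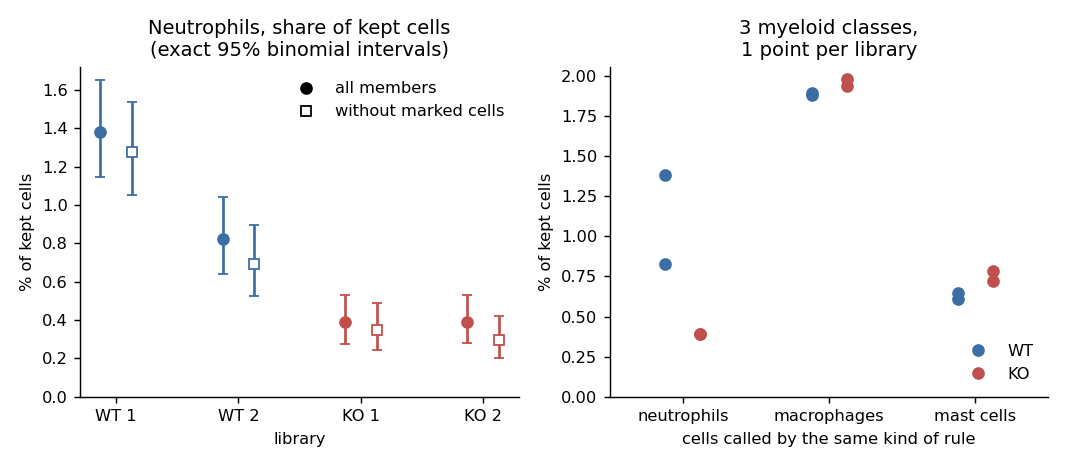
Left, neutrophils as a percentage of kept cells in each library, for all members (filled circles) and without monocyte-marked and fibroblast-marked cells (open squares), with exact 95% binomial intervals. Right, the shares of neutrophils, macrophages and mast cells with 1 point per library; the KO libraries lie at 0.391 and 0.392% for neutrophils, below the WT libraries at 1.38 and 0.825%.

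Neutrophil transcripts were also found at a low level in other cells. *S100a9* was detected in 3.48 and 1.79% of the other kept cells in WT, and in 0.824 and 1.27% of them in KO. *Camp* was detected in 0.771 and 0.531% of them in WT, and in 0.442 and 0.487% in KO, so that for both genes the libraries stood in the order of their neutrophil numbers. In macrophages, which should lack both, *S100a9* was detected in 6.75, 1.27, 2.59 and 0.472% of cells in the order WT replicates 1 and 2 and KO replicates 1 and 2. *S100a9* was detected in 99.2 and 100% of neutrophils in WT and 100 and 95.2% in KO, which the rule that chose them largely set. The other kept cells include the 42 and 18 cells that failed only 1 part of that rule, so they do not measure free RNA alone. Because of the low detection in macrophages and other cells, a low number of UMIs in any cell is not read as expression.

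Outside the rule, the 25 genes with the highest ratio of neutrophils to all other kept cells ran from *Ceacam10*, at 181 against 0.0553 CPM, to *Mmp8*, neutrophil collagenase, at 2539 against 1.81 CPM. Of these, 9 were stefins or related cystatins of chromosome 16 (*Stfa1*, *Stfa2*, *Stfa2l1*, *Stfa3*, *Csta2*, *Csta3*, *Cstdc4*, *Cstdc5* and *Cstdc6*) and 6 were specific granule genes (*Camp*, *Ngp*, *Ltf*, *Lcn2*, *Olfm4* and *Cd177*). Beside *Ceacam10*, *Ly6g* and *Mmp8*, the others were *Mirt2*, *Slco4c1*, *Mrgpra2b*, *Asprv1*, *Wfdc21*, *Il1f9* and *Ankrd22*. *Stfa1*, an intracellular inhibitor of cysteine proteases, was detected in all 270 neutrophils, at 22801 and 22084 CPM in WT and 19314 and 18176 CPM in KO. The stefin genes are closely similar neighbours, so reads can be split between them and the value of each is uncertain. *Lcn2*, which binds bacterial siderophores, stood at 3200 and 3388 CPM in WT and 3371 and 4257 CPM in KO, and had no UMI in macrophages or mast cells. *Olfm4*, a granule protein known to mark a subset of neutrophils, was detected in 178 of 270 cells. *Ly6g*, the antigen by which mouse neutrophils are sorted, was detected in 82 of 270, at 205 and 227 CPM in WT and 261 and 103 CPM in KO.

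**Figure D2:**
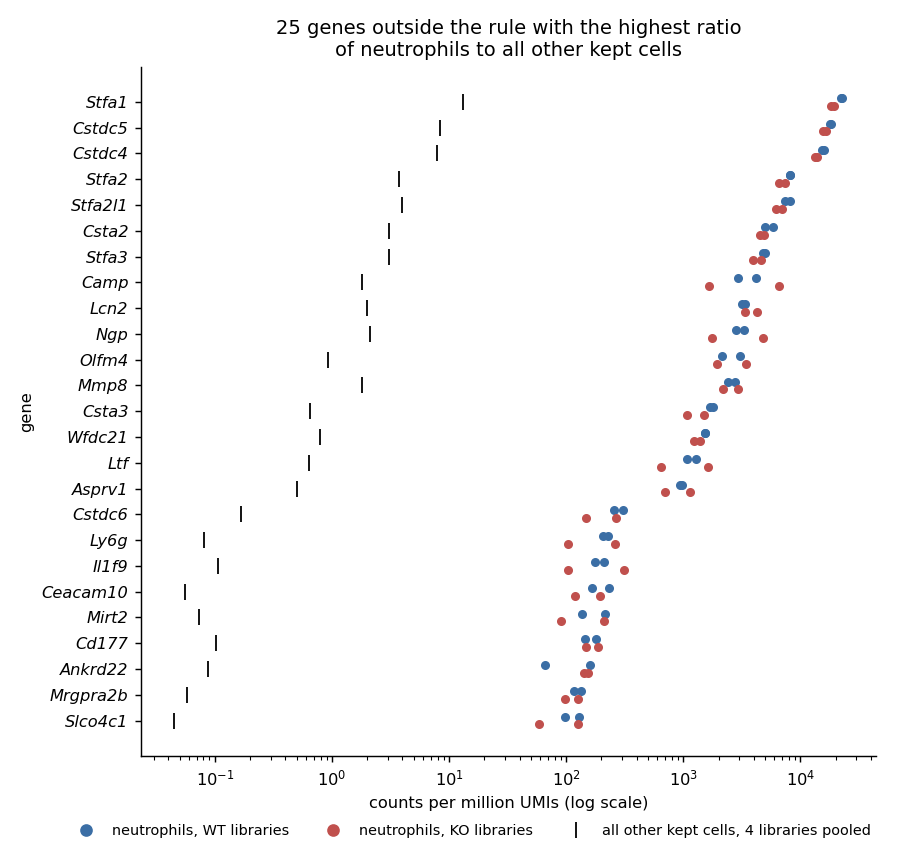
CPM (log scale) of the 25 genes outside the rule with the highest ratio of neutrophils to other kept cells. Circles are the neutrophils of each library, and ticks are all other kept cells pooled, which lie at 13.2 CPM or lower while the neutrophils of every library lie above 58 CPM.

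By function, genes of specific and tertiary granules, the NADPH oxidase and innate recognition were detected in every library, and primary granule genes were at or near 0. Of the primary granule genes in the feature table, *Mpo* (myeloperoxidase) and *Ctsg* (cathepsin G) had no UMI, *Elane* (neutrophil elastase) had 1 and the 5 genes together summed to 6 to 18 CPM per library. With 1041062 UMIs in the 270 cells, a count of 0 allows up to 2.88 CPM. All 9 specific granule genes were above the other cells in every library. The tertiary granule proteases *Mmp8* and *Mmp9* (gelatinase B) stood at 2539 and 838 CPM over all neutrophils. Each of the 6 genes of the NADPH oxidase, which makes the superoxide of the respiratory burst, was at 100 CPM or more, from *Ncf4* at 321 CPM to *Cyba* at 1077 CPM. Among receptors, the chemokine receptor *Cxcr2* stood at 392 and 355 CPM in WT and 440 and 174 CPM in KO, the complement receptor *C5ar1* at 570 and 626 CPM and 455 and 336 CPM, and *Csf2rb2* was at 9.61 CPM over all neutrophils. Integrin *Itgam* stood at 674 and 678 CPM in WT and 738 and 665 CPM in KO, and the groups overlapped. All 14 innate recognition genes in the table were above the other cells in every library, with *Tyrobp* and *Fcer1g*, adaptors of activating receptors, at 2766 and 2115 CPM. Other myeloid cells shared this list, which summed to 8816 CPM in neutrophils, 5413 CPM in macrophages and 5940 CPM in mast cells.

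Of the regulators of granulocyte formation, *Cebpb*, the C/EBP factor of emergency granulopoiesis, stood at 2384 and 2930 CPM in WT and 2140 and 2784 CPM in KO. *Spi1*, which encodes PU.1, was at 508 CPM and *Mxd1* at 625 CPM over all neutrophils, while *Cebpa* and *Gfi1*, which act in early precursors, were at 9.61 and 2.88 CPM. In the leukotriene pathway, *Alox5ap*, which presents arachidonic acid to 5-lipoxygenase, stood at 1517 and 1828 CPM in WT and 1737 and 1550 CPM in KO, and *Alox5* itself at 184 CPM over all neutrophils. KO and WT overlapped for *Cebpb*, *Alox5ap* and *Alox5*.

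Of 10 cytokine and chemokine genes, 6 were at 100 CPM or more over all neutrophils and 7 were above the other cells in every library. The list was not particular to neutrophils: it summed to 3400 CPM in them, 4658 CPM in macrophages and 706 CPM in mast cells. *Il1b*, which encodes interleukin-1 beta, stood at 908 and 1406 CPM in WT and 1037 and 652 CPM in KO and was detected in 147 of 270 cells. *Cxcl2*, a chemokine that recruits neutrophils, stood at 1062 and 985 CPM in WT and 1148 and 1182 CPM in KO. *Ccl6*, another chemokine, stood at 643 and 425 CPM in WT and 902 and 491 CPM in KO. *Tnf* was at 69.2 CPM and *Il1a* at 3.84 CPM over all neutrophils, and *Ccl4* was detected in 22 cells. Among interferon-response genes, *Ifit1*, *Ifit3*, *Rsad2*, *Irf7* and *Isg15* were at 12.5 to 33.6 CPM, while *Ifitm6* was at 943 CPM. The apoptosis inhibitor *Mcl1* stood at 1127 CPM and *Bcl2* at 9.61 CPM. Of the proliferation genes, *Mki67* was detected in 10 members and *Top2a* in 11. The 9 cell-cycle genes left without *Hmgb2*, *Pcna* and *Tuba1b* had at least 10 UMIs together in 5 monocyte-marked cells, 1 fibroblast-marked cell and none of the 236 others. All 12 genes of that list summed to 1921 CPM without marked cells, where the 9 genes held only 61 UMIs.

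Members differed widely in their specific granule transcripts. The state of a cell was read from the share of its UMIs in *Camp*, *Ngp*, *Ltf* and *Chil3*, which encode cathelicidin, neutrophilic granule protein, lactoferrin and a chitinase-like protein, in that order. Cells with at least 2% are called granule-rich, those with 0.2 to 2% intermediate and those under 0.2% granule-poor, which are ranges of 1 score and not cell types. The score was 0 in 153 of 270 cells and reached 9.0%. There were 22 cells between 1 and 4% and 26 between 0.1 and 0.4%, near the limits. *Camp*, *Ngp* and *Ltf* came from the same cells: *Camp* was detected in 82, *Ngp* in 85 and both in 73, and 61 of the 65 cells with *Ltf* had *Camp*. *Chil3* followed them less closely, since 34 of its 55 cells had *Camp* and monocyte-marked cells held it at 1094 CPM.

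**Figure D3:**
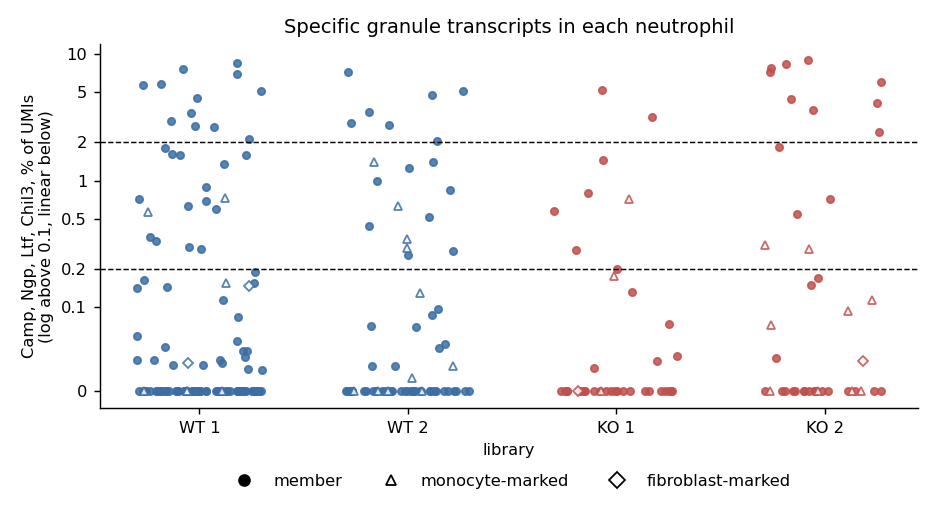
Percentage of each neutrophil's UMIs in *Camp*, *Ngp*, *Ltf* and *Chil3* (log scale above 0.1, linear below), by library; dashed lines at 0.2 and 2% separate the states. Triangles are monocyte-marked and diamonds fibroblast-marked cells, none of which lies above the 2% line, and 153 of the 270 cells lie at 0.

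The promoters of the 4 score genes are printed because these genes define the states. Each is taken from the 250 bases before the RefSeq start on GRCm38.p6, without bases that lie inside the gene in the GENCODE annotation, and is read along the gene's strand: Camp chr9:109849618-109849706 (minus strand), Ngp chr9:110419558-110419746 (plus), Ltf chr9:111019042-111019270 (plus) and Chil3 chr3:106167565-106167814 (minus). Capitals mark matches of 2 motifs searched on both strands, TTGCNNAA, a form of the site of C/EBP factors, and AGGAAG, a form of the site of ETS factors such as PU.1. No match of one overlaps a match of the other here, and the motifs were picked after the sequences had been seen.
Camp: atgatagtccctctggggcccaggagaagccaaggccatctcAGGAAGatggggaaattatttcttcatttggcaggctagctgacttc
Ngp: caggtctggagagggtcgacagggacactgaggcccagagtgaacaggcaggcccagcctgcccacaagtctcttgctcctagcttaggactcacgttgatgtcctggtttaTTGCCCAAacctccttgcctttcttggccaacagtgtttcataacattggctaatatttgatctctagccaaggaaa
Ltf: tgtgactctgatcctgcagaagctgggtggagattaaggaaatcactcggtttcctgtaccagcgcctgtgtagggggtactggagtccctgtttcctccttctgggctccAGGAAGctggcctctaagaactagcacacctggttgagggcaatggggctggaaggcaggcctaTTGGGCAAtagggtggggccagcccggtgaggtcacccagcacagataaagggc
Chil3: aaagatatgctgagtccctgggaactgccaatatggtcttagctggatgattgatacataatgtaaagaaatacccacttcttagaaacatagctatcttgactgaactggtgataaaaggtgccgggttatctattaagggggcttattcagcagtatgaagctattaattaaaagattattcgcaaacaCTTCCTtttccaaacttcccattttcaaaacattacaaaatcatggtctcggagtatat

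In the printed stretches, TTGCNNAA or its complement was found in Ngp and in Ltf, and AGGAAG or its complement in Camp, Ltf and Chil3, each at 1 place. Over all 32851 RefSeq promoters, taken as the full 250 bases before the start, 9.56% held TTGCNNAA and 29.5% AGGAAG. Of the 8 specific granule genes with such an entry, 3 held the first (*Lcn2*, *Ltf* and *Ngp*) and 6 the second. A match describes letters in this window and is not a binding site.

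Granule-rich cells were a minority in every library. In WT replicate 1 there were 12 of 120 (10.0%, exact 95% interval 5.27 to 16.8) and in WT replicate 2 there were 7 of 69 (10.1%, 4.18 to 19.8). In KO replicate 1 there were 2 of 39 (5.13%, 0.627 to 17.3) and in KO replicate 2 there were 9 of 42 (21.4%, 10.3 to 36.8). The KO libraries lay on either side of the WT libraries. The means were 10.1 ± 0.102% in WT and 13.3 ± 11.5% in KO (SD, n = 2), a difference of 3.21 percentage points with an exact two-sided permutation p of 1. Without KO replicate 2 the difference was -4.94 and without KO replicate 1 it was 11.4 percentage points, so its direction rested on which KO library was used. Granule-poor cells numbered 92, 50, 31 and 28, or 76.7 and 72.5% in WT and 79.5 and 66.7% in KO.

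The comparison of states that follows uses members without marked cells, pooled over libraries, and has no test, since the same cells gave the score. There were 30 granule-rich cells with a median of 5022 UMIs and 176 granule-poor cells with a median of 2551.5. By construction *Camp* stood at 22731 CPM in rich and 66.5 CPM in poor cells, with intermediate cells at 3799 CPM. Several genes outside the score followed the same order. *Lcn2* stood at 10340 CPM in rich and 1776 CPM in poor cells (5.82-fold), and over all members rich cells held more than poor cells in all 4 libraries. *Cd177*, a surface receptor of neutrophils, was 8.81-fold higher, *Olfm4* 4.2-fold and *Anxa1*, an annexin of tertiary granules and cytosol, 4.80-fold. Of the 9 specific granule genes 7 were at least 2-fold higher in rich cells, the exceptions being *Pglyrp1* (1.43-fold) and *Hp* (0.727-fold). Over all 3550 genes with more than 3 UMIs in both states, 369 were at least 2-fold higher in rich and 638 in poor cells.

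Of 8 granulocyte transcription factors compared between the states, 1 was at least 2-fold higher in rich and 3 in poor cells, and of 6 NADPH oxidase genes 1 was at least 2-fold higher in rich and 0 in poor cells. *Cebpe*, the C/EBP factor needed to form specific granules, stood at 257 CPM in rich, 120 in intermediate and 62.5 in poor cells, on 39, 16 and 31 UMIs. *Cebpb*, another C/EBP factor, stood at 977 CPM in rich and 3453 CPM in poor cells. *Cybb*, the catalytic subunit of the NADPH oxidase, was 8.84-fold higher in rich cells, while *Ncf1*, a cytosolic subunit, stood at 713 CPM in rich and 524 CPM in poor cells. *Ifitm6* was 6.48-fold and *Ltb4r1*, the leukotriene B4 receptor, 3.96-fold higher. Of the 10 genes outside the score with the largest rich-to-poor ratio over all members, *Zmpste24*, *Serpinb1a* and *Fcnb* had 8 UMIs or fewer in poor cells, and *Abca13*, *Cd177*, *AA467197*, *Dach1*, *Mrgpra2a*, *Syne1* and *Itgb2l* had ratios of 6.95 or more. *Abca13* stood at 422 CPM in rich cells and *Syne1*, which encodes nesprin-1 of the nuclear envelope, at 1419 CPM. The proliferation genes *Mki67* and *Top2a* and the primary granule genes *Mpo* and *Elane* were near the detection limit in rich cells. *Mki67* had 2 UMIs, *Top2a* had 1 and *Mpo* and *Elane* had 0 of 151553, and a count of 0 allows up to 19.8 CPM. The cell cycle list as a whole was not, as its 12 genes summed to 2237 CPM in rich and 1802 CPM in poor cells. That sum includes *Hmgb2*, *Pcna* and *Tuba1b*. The other 9 genes held only 61 UMIs in all 236 unmarked members, so the sum is not read as cycling.

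**Figure D4:**
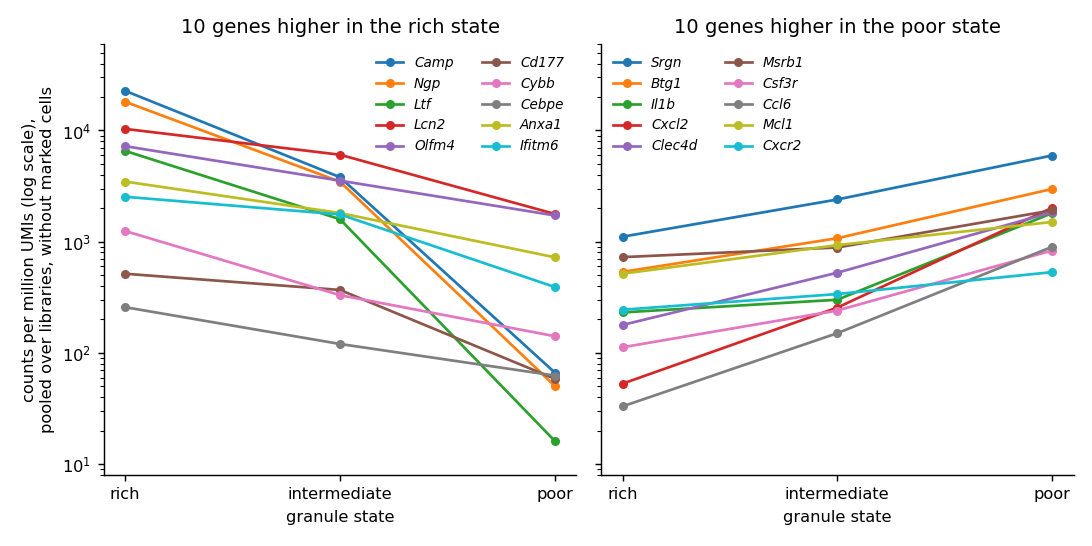
CPM (log scale) in granule-rich, intermediate and granule-poor neutrophils without marked cells, pooled over the 4 libraries. Left, 10 genes that were higher in rich cells, of which *Camp*, *Ngp* and *Ltf* are part of the score, and right, 10 genes that were higher in poor cells; each of the 20 lines runs in 1 direction across the states.

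Of 6 cytokine and chemokine genes compared, 5 were at least 2-fold higher in granule-poor cells and 0 in rich cells, and of 9 receptor genes 4 were higher by that measure in poor cells and 1 in rich cells. *Cxcl2* stood at 2016 CPM in poor and 52.8 CPM in rich cells (38.2-fold), on 1000 and 8 UMIs. *Il1b* stood at 1804 and 231 CPM (7.81-fold), and its 35 UMIs in rich cells came from 1 of 30 cells. *Ccl6* was 27.2-fold, *Clec4d*, a C-type lectin of activated phagocytes, 10.3-fold and *Srgn*, the granule proteoglycan serglycin, 5.37-fold higher in poor cells. Of 12 late maturation genes, 8 were at least 2-fold higher in poor cells and none in rich cells, and *Cxcr2*, the receptor that takes mature neutrophils out of the marrow, was 2.18-fold higher. Among the rule genes, *Csf3r* and *Il1r2* were 7.42- and 5.37-fold higher in poor cells, *S100a8* and *S100a9* were 1.90- and 1.88-fold higher in rich cells, and *Retnlg* was highest in intermediate cells at 21821 CPM. The rule genes also chose the cells, so their ratios depend on that choice and are a description only. Of 9 stress genes induced by dissociation that could be compared, 6 were at least 2-fold higher in poor and 0 in rich cells: *Dusp1* was 19.1-fold and *Junb* 5.84-fold higher in poor cells, and all 12 genes of that list summed to 1214 CPM in rich, 3649 in intermediate and 5533 in poor cells. Their part in the differences between states was not tested.

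Over all members, the rule for naming genes put forward for poor cells 10 genes with no UMI in rich cells, and several of these came from marked or single cells. *Fn1*, *Ms4a6c* and *Tenm3* had 95.1, 90.8 and 96.3% of their granule-poor UMIs in marked cells. *Tagln* had 91 of its 94 UMIs in 1 cell of WT replicate 1. *Egr3*, *Ifitm1* and *Tnfrsf1b* were at least 5.70-, 8.55- and 6.01-fold higher in poor cells without marked cells, against the limit of 19.8 CPM that 3 UMIs over all rich cells set. *Ccl4*, *Epb41l2* and *Pid1* had 53.3, 54.1 and 66.7% of theirs in marked cells. Ranked instead without marked cells and with more than 3 UMIs in both states, a choice made after the data were seen, the genes furthest toward poor cells were *Cxcl2*, *Ccl6*, *Pla2g7* and *Jaml* at 38.2- to 19.3-fold.

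No gene passed the test for a difference between KO and WT neutrophils. Counts were summed over the neutrophils of each library (479103 and 273042 UMIs in WT, 134102 and 154815 in KO) and 3148 genes were tested with edgeR's quasi-likelihood test, which called 0 of them (0% of those tested) at an adjusted p of 0.05. At an unadjusted p of 0.05 there were 104 genes, 47 higher and 57 lower in KO, and DESeq2 called 0 with 27 of 14135 genes at an unadjusted p of 0.05. Among all genes tested the KO libraries lay wholly above the WT libraries for 568 (18%) and wholly below for 442 (14%), against which the counts in the lists below are set. With 1 library left out edgeR called 6 to 18 genes, which included *Xist* without WT replicate 1, without WT replicate 2 and without KO replicate 1, and *C1qa*, *C1qb* and *C1qc*, from the single cell above, wherever KO replicate 1 was kept.

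Of 9 specific granule genes tested, 5 had a higher and 4 a lower value in KO, with a median log2 fold change of 0.01 and 1 without overlap, *Hp*, which stood at 1499 and 1839 CPM in WT and 1320 and 1415 CPM in KO. *Camp* stood at 4154 and 2912 CPM in WT and 1670 and 6576 CPM in KO, and *Ngp* at 3319 and 2824 CPM and 1752 and 4812 CPM, so for both the KO libraries lay on either side of the WT libraries. Their log2 fold changes were 0.19 (SE 0.48) and 0.07 (SE 0.37), and both changed sign with the study's cell limits. For all 6 NADPH oxidase genes the groups overlapped. Of 10 receptor genes tested, 3 lay wholly higher and 5 wholly lower in KO. Over all 3148 genes tested these shares were 18 and 14%, which also stand beside the counts of the lists that follow. *Cxcr2*, *Fpr1* and *Fpr2* are in both the receptor and the late maturation list. The receptor list summed to 2505 and 2685 CPM in WT and 2535 and 1918 CPM in KO, which overlapped. Of 12 late maturation genes 4 lay wholly lower and 11 had a log2 fold change below 0 (median -0.15), against 1584 of all 3148 genes. Their sums overlapped, at 11776 and 12965 CPM in WT and 12871 and 9599 CPM in KO. Without marked cells these were 13709 and 14345, and 15351 and 12522.5 CPM, which overlapped as well. *C5ar1* had a log2 fold change of -0.64 (SE 0.22, unadjusted p = 0.0181 and adjusted p = 0.998 by edgeR). Of 8 cytokine genes 3 lay wholly higher, among them *Tnf* at 48.0 and 58.6 CPM in WT and 89.5 and 136 CPM in KO and *Cxcl2* at 1165 ± 23.8 CPM in KO against 1024 ± 54.6 CPM in WT (SD, n = 2), while *Il1b* overlapped.

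Of the list of stefins and cytosolic proteins, all 9 tested had a log2 fold change below 0, with a median of -0.26 against -0.0027 over all genes, and 5 lay wholly below WT, against 14% of all genes. None passed in edgeR's test, and the smallest unadjusted p in the list was that of *Stfa1*, at a log2 fold change of -0.30 (SE 0.11, unadjusted p = 0.0255, adjusted p = 0.998 by edgeR). Without marked cells the list summed to 68022 and 66084 CPM in WT and 63028 and 66866 CPM in KO, and the groups overlapped. Monocyte-marked cells held these genes at a lower level, 18725 CPM. Marked cells took 4 of 39 and 10 of 42 members in the KO libraries and 9 of 120 and 11 of 69 in the WT libraries. Unmarked members made up 92.5 and 84.1% in WT and 89.7 and 76.2% in KO, so the groups overlapped. The part of marked cells in the lower values was not tested.

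Among the genes with the smallest unadjusted p and no overlap, those higher in KO were *S100a10*, *F13a1*, *Pde3b*, *Ifi30*, *Lpin2*, *Klf4*, *Slc8a1*, *Asah1*, *Mbtd1* and *Cox14*. *S100a10*, the annexin A2 partner, stood at 157 and 157 CPM in WT and 365 and 317 CPM in KO, a log2 fold change of 1.08 (SE 0.24, adjusted p = 0.998 by edgeR), and without marked cells at 71.4 and 80.9 CPM and 110 and 32.6 CPM. *F13a1*, coagulation factor XIII subunit A and a gene of the monocyte list, stood at 202 and 282 CPM in WT and 433 and 472 CPM in KO, and without marked cells at 66.1 and 42.8 CPM and 39.9 and 54.3 CPM. *F13a1*, *Ifi30*, *Klf4* and *Slc8a1* had too few UMIs to be tested without marked cells. *Lpin2*, a phosphatidate phosphatase, kept its direction there, at 66.1 and 28.5 CPM in WT and 150 and 119 CPM in KO.

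Those lower in KO were *Elmsan1*, *Tirap*, *Ubp1*, *Dym*, *Acta2*, *Gnas*, *Dnajb9*, *Hdc*, *Itpr2* and *Orai1*, none of which passed with all 4 libraries and the gene filter used here. *Tirap*, the adaptor that links Toll-like receptors to MyD88, stood at 85.6 and 80.6 CPM in WT and 37.3 and 19.4 CPM in KO, on 71 UMIs in all, a log2 fold change of -1.60 (SE 0.50, adjusted p = 0.998 by edgeR). *Hdc*, which makes histamine, stood at 315 and 450 CPM in WT and 231 and 213 CPM in KO and was detected in 156 of 270 cells. *Itpr2*, a receptor that releases stored calcium, stood at 152 and 103 CPM in WT and 74.6 and 45.2 CPM in KO. *Orai1*, a channel of store-operated calcium entry, stood at 123 and 110 CPM in WT and 52.2 and 64.6 CPM in KO. For *Acta2*, smooth muscle actin, 89 of 170 UMIs came from the same cell of WT replicate 1 that held *Tagln*. Its log2 fold change was -2.24 with all libraries and -0.94 without WT replicate 1, and it passed without WT replicate 2 (-2.84, adjusted p = 6.72e-07 by edgeR) and when every gene with 1 UMI was tested (-2.34, adjusted p = 5.37e-05 by edgeR). The log2 fold changes of all 10 were below 0 without marked cells as well, from -2.05 for *Acta2* to -0.64 for *Hdc*. The cell with 89 *Acta2* UMIs is not a marked cell and stayed in, at 346 CPM of *Acta2* in WT replicate 1. For *Acta2* the value without marked cells is therefore no check on that cell.

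**Figure D5:**
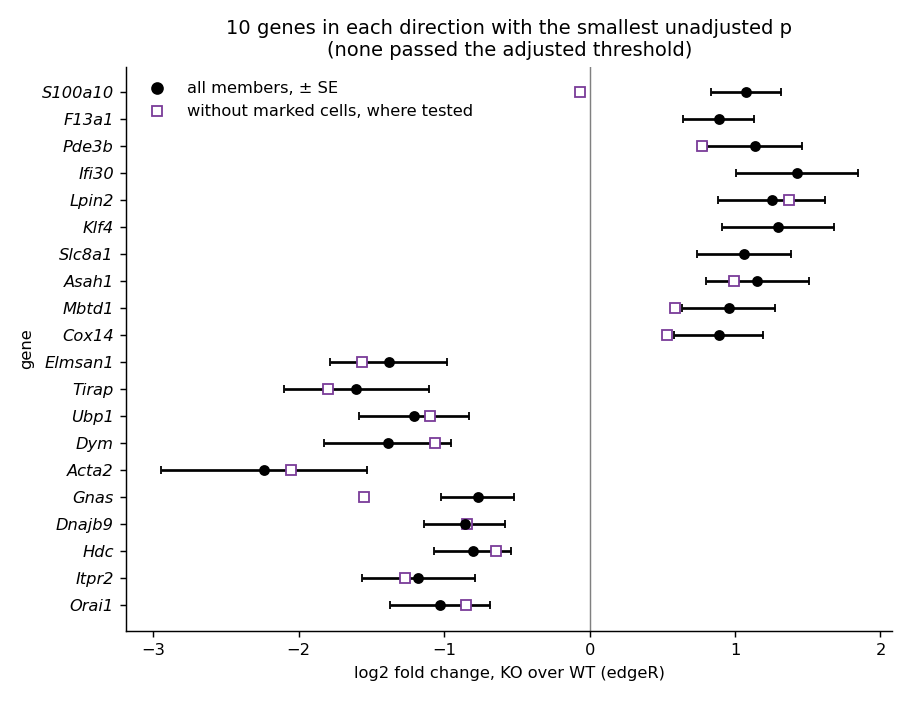
Log2 fold changes of KO over WT neutrophils (edgeR) for 10 genes in each direction with the smallest unadjusted p, at least 50 CPM and no overlap between groups. Circles are all members with the standard error and squares are without marked cells where the gene was tested; none passed the adjusted threshold, and *S100a10* moves from 1.08 to -0.07.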

How the data were processed

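Raw UMI counts per gene and cell were deposited by the authors for 2 WT and 2 KO libraries, made with Chromium Single Cell 3' v3 chemistry and Cell Ranger 7.2.0 on mm10, per the labels. They had not been normalised, and each UMI stands for 1 captured 3' end, so levels were not divided by transcript length. Kept cells, members and comparison cells followed the limits in the report. The study kept cells with 1000 genes and 1000 UMIs or more, which would leave out 67 of 270 neutrophils. The neutrophils and gene lists were chosen with earlier results of these data known, and the marked cells were set apart after the cells were seen.

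UMIs were summed per library and tested with edgeR 4.0.16 (limma 3.58.1, R 4.3.3; TMM factors, filterByExpr, quasi-likelihood test, Benjamini-Hochberg adjustment over all genes tested); CPM is UMIs scaled to a total of 1000000 in a library's or class's cells. Alternatives were DESeq2 1.42.0, RLE factors, other filters, a replicate block, and each library left out in turn. Shares were compared by exact permutation over libraries (scipy 1.17.1), and intervals are exact Clopper-Pearson 95% intervals that cover counting error only. The series text calls the libraries biological replicates without tying them to fetuses, so p-values measure the spread between these libraries. Scrublet (scanpy 1.11.5) marked 1.47 to 2.45% of kept cells per library; it was used only as an alternative, and in KO replicate 2, where its own threshold of 0.635 marked none, the mean threshold of the others, 0.270, was used. The edgeR step was tested on simulated data with a dispersion set in advance. It recovered 14 of 184 tested genes changed 2-fold, 154 of 187 changed 4-fold and 175 of 181 changed 8-fold, with 0, 2 and 13 false calls. Genes were named from the lists and by 3 rules: the 25 highest ratios to other cells at 100 CPM or more, the 10 largest ratios each way between rich and poor cells, and the 10 smallest p each way for KO against WT with no overlap and at least 50 CPM. *Azu1*, *BC100530* and *Clec7a* were not found in the feature table. Some members of the lists are counted but not reported here by name. Gene positions and promoters are from GRCm38, the genome of mm10. Promoter sequences are RefSeq's.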

Additional observations from a re-analysis of the deposited data

How the results depend on the processing

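The lower neutrophil share in KO kept its direction under all alternatives tried, including the one without marked cells, which was chosen after the data were seen; leaving out each library in turn gave -0.991 to -0.434 percentage points. With the study's cell limits it was -0.668 and without marked cells -0.661. The share of granule-rich cells differed by 1.42 to 5.48 percentage points under the settings that used all 4 libraries, and by -4.94 to 11.4 with 1 library left out. The test of KO against WT genes called 0 genes in 7 of 8 alternatives with all libraries, and 26 (13 in each direction) when every gene with 1 UMI was tested, among them *C1qa* and *Tagln* from single cells and *Xist* and *Ddx3y*. Leaving out 1 library gave 6 to 18 calls: 8 without WT replicate 1, 18 without WT replicate 2, 6 without KO replicate 1 and 9 without KO replicate 2, where the remaining library of a group was assumed to vary like the other group. *Camp* passed only without KO replicate 2, at a log2 fold change of -1.14 (adjusted p = 0.00479), as did *Ngp* at -0.87 (adjusted p = 0.022). With the replicate number as a block (paired by number) 0 genes passed, with 138 at an unadjusted p of 0.05 and a lowest adjusted p of 0.106 (edgeR); the replicate 1 minus 2 differences of WT and KO had a correlation of 0.0966 across 3148 genes, and the labels do not say that numbers pair fetuses. Under the block *Camp* and *Ngp* were at -0.078 and -0.096, with the study's cell limits at -0.19 and -0.056, and *Ngp* was at -0.060 when every gene with 1 UMI was tested. *Camp* ranged from -1.14 to 0.84 and *Ngp* from -0.87 to 0.60 with 1 library left out. *S100a10* was at -0.066 without marked cells. *Acta2* passed without WT replicate 2 and when every gene with 1 UMI was tested, at log2 fold changes of -2.84 and -2.34, and was at -0.94 without WT replicate 1. The cause of these changes was not tested. Between 39 and 120 neutrophils per library limit what differences could be seen, and in the simulated data most genes changed 2-fold were not recovered.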
